A study of Homo sapiens with 12 samples.

Results

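Transcript levels of 6 immune receptor genes were followed in SET-2 cells, an established human line labelled acute myeloid leukemia. The genes were CLEC4A, CLEC12A, JAML, FCGR2A, FCGR2B and FCER1G, taken by symbol from the 63677 genes of the count tables, and 6 of 6 were found and were among the 12864 that passed the count filter. CLEC4A, JAML and FCGR2B passed it through the drugged wild-type libraries. They had been picked with values of these libraries in view, namely that CLEC4A, JAML and FCGR2B were high and FCGR2A low in drugged wild-type cells, so the drug response of these genes in wild-type cells is described without a test. There were 4 groups of 3 libraries. WT cells carried wild-type LSD1, and insR cells, labelled drug-resistant, carried LSD1 with the change Leu659_Asn660insArg, an arginine inserted between these residues. Each was given 250 nM GSK-LSD1, an irreversible inhibitor of the histone demethylase LSD1, or the solvent DMSO alone at 0.1% (v/v), for 48 h. No group had cells without a treatment or with a different drug, and whether the insR cells are 1 clone is not given in the sources used here.

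Myeloid cells carry surface receptors that either start or restrain activation. Activating receptors signal through ITAM motifs, which recruit the kinase SYK after phosphorylation by kinases such as LYN, and inhibitory receptors signal through ITIM motifs, which recruit the phosphatases encoded by PTPN6 and INPP5D. CLEC4A and CLEC12A are C-type lectin receptors with an ITIM. FCGR2B, which binds the Fc part of IgG, also has one, whereas the related IgG receptor FCGR2A has an ITAM of its own. FCER1G is the ITAM adaptor chain shared by several Fc and other receptors, and JAML is an adhesion molecule of leukocytes whose known ligand is CXADR.

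The stretches around the transcription starts of 4 of the genes are printed because JAML, FCGR2B and CLEC12A were higher, and FCGR2A lower, in WT cells under the drug. Each runs 5′ to 3′ on the gene's own strand, from 250 bases before to 50 bases after the start, and comes from RefSeq on GRCh38.p14, a later build than the hg19 of the counts. CLEC4A had no entry. Capitals mark matches to short cores of the motifs of myeloid and erythroid factors, searched on both strands.
JAML, chr11:118212897-118213196, minus strand: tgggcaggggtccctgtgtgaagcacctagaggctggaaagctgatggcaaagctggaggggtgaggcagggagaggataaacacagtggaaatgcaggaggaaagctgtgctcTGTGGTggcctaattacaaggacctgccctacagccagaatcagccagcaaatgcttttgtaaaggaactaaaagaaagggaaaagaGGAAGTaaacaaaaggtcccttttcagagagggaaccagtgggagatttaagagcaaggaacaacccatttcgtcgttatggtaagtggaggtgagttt
FCGR2B, chr1:161662893-161663192, plus strand: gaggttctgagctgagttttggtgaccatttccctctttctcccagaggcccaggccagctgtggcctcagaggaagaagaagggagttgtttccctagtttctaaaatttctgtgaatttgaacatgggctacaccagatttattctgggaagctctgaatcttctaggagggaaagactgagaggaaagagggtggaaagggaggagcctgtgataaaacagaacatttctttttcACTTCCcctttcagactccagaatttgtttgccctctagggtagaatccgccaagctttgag
CLEC12A, chr12:9971159-9971458, plus strand: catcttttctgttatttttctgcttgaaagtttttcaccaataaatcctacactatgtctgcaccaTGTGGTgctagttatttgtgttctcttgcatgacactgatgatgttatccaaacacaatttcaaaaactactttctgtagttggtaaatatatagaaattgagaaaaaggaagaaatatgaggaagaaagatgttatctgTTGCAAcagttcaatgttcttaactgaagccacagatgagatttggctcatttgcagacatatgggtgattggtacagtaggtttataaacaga
FCGR2A, chr1:161505207-161505506, plus strand: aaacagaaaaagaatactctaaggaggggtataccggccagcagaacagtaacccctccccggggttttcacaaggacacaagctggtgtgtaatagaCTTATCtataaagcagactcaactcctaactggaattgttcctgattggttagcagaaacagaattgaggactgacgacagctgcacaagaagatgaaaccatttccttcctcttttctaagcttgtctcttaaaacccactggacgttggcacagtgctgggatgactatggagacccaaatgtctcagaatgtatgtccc
The PU.1 core GGAAGT lies at -49 from the start of JAML, and its other-strand form ACTTCC at -12 from that of FCGR2B. GGAAGT in either form was in 22.8% of the 35116 windows of this length. The C/EBP core TTGCAA lies at -44 in CLEC12A and was in 5.51% of windows. FCGR2A holds CTTATC, the other-strand form of the GATA core GATAAG, at -152, and 6.36% of windows held it. The RUNX core TGTGGT lies at -136 in JAML and -184 in CLEC12A, as well as at -42 in FCER1G, which is not printed, and was in 13.1% of windows. The GFI1 core AAATCA, in 13.2% of windows, was not in those of the 5 genes with an entry. A second entry for FCGR2B, at another start, held no match. These matches overlap no other match and describe letters only.

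Reads in genes numbered 4837096 to 10141155 per library, and 3 counts, the limit that a count of 0 allows, were worth 0.296 to 0.62 CPM, counts scaled to the same library total. KDM1A, which encodes LSD1, ranged over group means from 265 CPM (WT, DMSO) to 106 CPM (insR, drug), and gene counts do not show the insertion. In DMSO its log2 fold change, insR against WT, was -1.28 (edgeR adjusted p = 7.64e-12). With the drug it was -0.29 in WT cells (adjusted p = 0.00451) and -0.03 in insR cells (adjusted p = 0.983). Blast markers were present (CD34 at 295 CPM and KIT at 407 in WT DMSO), while MPO stayed under 1 CPM in every group. Uniquely aligned reads outside genes made up 18.4% to 19.5% in WT GSK-LSD1, against 16.3% to 16.7% in WT DMSO and 13.7% to 17.1% in insR libraries, and the part of this in the results was not tested.

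CLEC4A, the inhibitory lectin receptor, had 0, 2 and 2 reads in the 3 WT DMSO libraries and 304, 473 and 856 in WT GSK-LSD1. These are levels of 0, 0.268 and 0.357 CPM against 57.5, 90.8 and 87.2 CPM. It had 1, 1 and 0 reads in insR DMSO and 1, 2 and 0 in insR GSK-LSD1, so no library outside drugged WT cells had more than 2 reads. Pooled over libraries, its level in drugged WT cells was 377 times that in WT DMSO, with a 95% counting interval of 147 to 1385. The edgeR log2 fold change was 8.40 (SE 0.34). This SE was worked out from the test statistic. With so few reads in WT DMSO it is too small, and the counting interval is wider. Against drugged insR cells, with 3 reads in all, the ratio was 468 (160 to 2274). Of the 50-base stretches in the last 500 bases of CLEC4A transcripts, 87.4% also occur in a transcript that a later annotation lists as the separate gene AC006511.5, so reads counted for CLEC4A may include it.

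JAML, too, was high in drugged WT cells and near 0 in the other groups. It had 2, 2 and 4 reads in WT DMSO, at 0.351, 0.268 and 0.714 CPM, and 240, 235 and 453 reads in WT GSK-LSD1, at 45.4, 45.1 and 46.1 CPM. The drugged WT libraries lay close together, with a mean of 45.5 ± 0.523 CPM (SD, n = 3). The pooled ratio was 107 (54.1 to 249), and the log2 fold change 6.67 (SE 0.31). For JAML, too, the counting interval is wider than this SE implies. In insR cells JAML had 3, 3 and 0 reads in DMSO and 3, 0 and 2 under the drug, levels that overlapped each other and those of WT DMSO.

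FCGR2B, the inhibitory IgG receptor, started from a low level in WT DMSO, with 7, 3 and 6 reads at 1.23, 0.402 and 1.07 CPM. In WT GSK-LSD1 it had 83, 85 and 189 reads at 15.7, 16.3 and 19.2 CPM. The pooled ratio was 20.6 (12.5 to 36.4) and the log2 fold change 4.29 (SE 0.33). The lowest levels were in insR cells, at 0.305, 0 and 0.176 CPM in DMSO and 0.161, 0.415 and 0.155 CPM under the drug. The insR DMSO libraries all lay under the WT DMSO libraries, with 4 reads against 16, a pooled ratio of 0.217 (0.0528 to 0.673).

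CLEC12A, an inhibitory lectin receptor of myeloid cells that is also known as a surface marker of leukemic blasts, was scarce throughout. It had 7, 3 and 6 reads in WT DMSO, at 1.23, 0.402 and 1.07 CPM, and 19, 30 and 38 reads in WT GSK-LSD1, at 3.59, 5.76 and 3.87 CPM. The read counts of CLEC12A and FCGR2B in the WT DMSO libraries happened to be the same numbers. In insR cells it was at 1.52, 4.29 and 2.99 CPM in DMSO and 2.42, 2.07 and 2.17 CPM under the drug. The mean was highest in drugged WT cells, whose libraries overlapped those of insR DMSO, the insR groups overlapped each other, and WT DMSO lay under all other libraries. The pooled ratio in WT cells was 5.02 (2.92 to 9.17), with a log2 fold change of 2.31 (SE 0.45).

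FCGR2A, the activating IgG receptor, was the one receptor of the 6 with lower libraries under the drug in both cell types. It was at 14.7, 14.1 and 13.0 CPM in WT DMSO and 4.35, 6.72 and 6.92 CPM in WT GSK-LSD1. In insR cells it was at 10.5, 13.4 and 10.4 CPM in DMSO and 7.90, 6.64 and 8.52 CPM under the drug. The pooled ratio of drug to DMSO was 0.444 (0.356 to 0.551) in WT cells and 0.691 (0.556 to 0.856) in insR cells, with log2 fold changes of -1.19 (SE 0.20) and -0.55 (SE 0.20). The means descend from WT DMSO at 14.0 ± 0.860 CPM and insR DMSO at 11.4 ± 1.70 to insR GSK-LSD1 at 7.68 ± 0.957 and WT GSK-LSD1 at 6.0 ± 1.43 (SD, n = 3). Neighbours in this order overlapped, except that insR DMSO lay above insR GSK-LSD1. FCGR2C, a near copy of FCGR2A at its 3′ end, shares 27.8% of the 50-base stretches in the last 500 bases, so the counting could split reads between them. Its row held 11 reads over WT GSK-LSD1, 0 over WT DMSO, 4 over insR DMSO and 5 over insR GSK-LSD1.

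FCER1G, the shared adaptor chain, had group means from 17.1 CPM (insR GSK-LSD1) to 19.6 CPM (WT DMSO). It was at 18.3, 24.0 and 16.6 CPM in WT DMSO and 19.9, 13.2 and 21.9 CPM in WT GSK-LSD1, and at 19.4, 19.1 and 16.7 CPM in insR DMSO and 15.1, 15.97 and 20.3 CPM in insR GSK-LSD1. All groups overlapped. The pooled ratio of drug to DMSO in WT cells was 0.955, with a counting interval of 0.827 to 1.10.

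**Figure D1:**
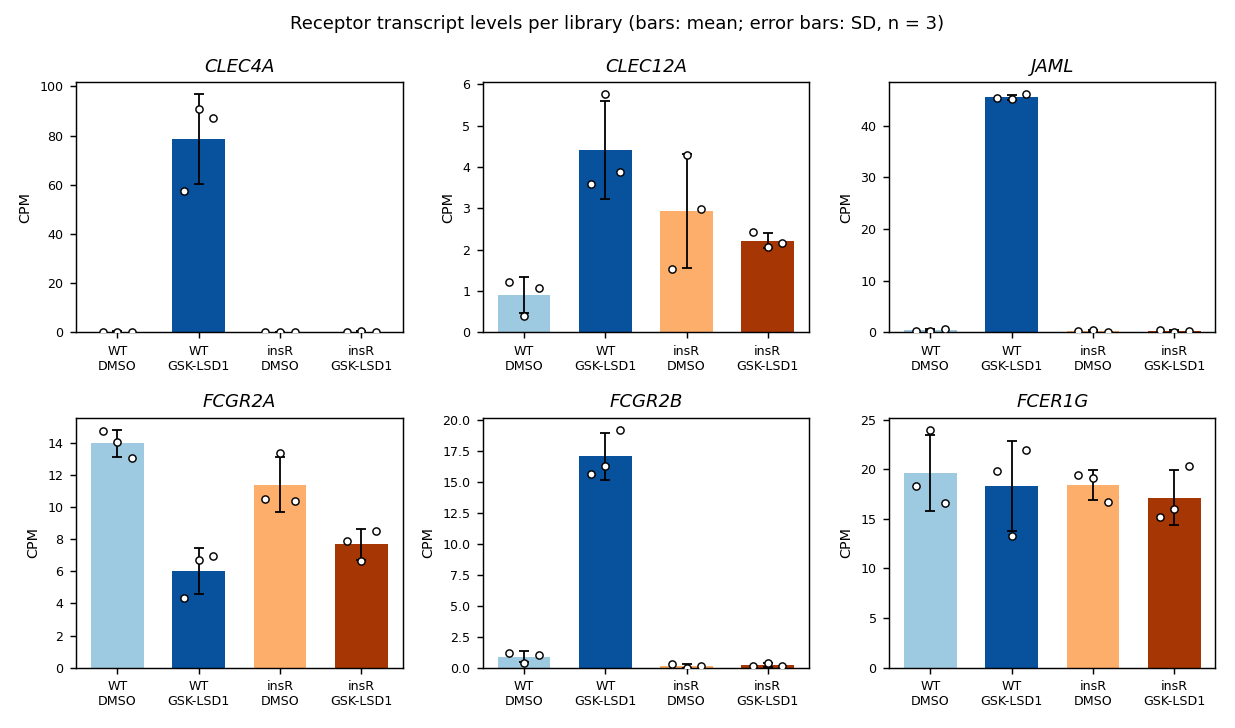
CPM of the 6 receptor genes (vertical axes, linear and of different heights) in the 4 groups (horizontal axis), with bars for means, error bars for SD (n = 3) and circles for libraries. CLEC4A, JAML and FCGR2B stand near 0 except in WT GSK-LSD1, where they reach means of 78.5, 45.5 and 17.1 CPM, whereas FCGR2A is lowest there and FCER1G stays between 13.2 and 24.0 CPM.

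The WT libraries of the 2 treatments did not overlap for 5 of the 6 genes, and over all 12864 genes tested this held for 51.9%; because the genes were picked on this contrast, nothing is read from that count. The counts cannot tell more RNA per cell from more cells of a type that carries it. Of 9 monocyte and macrophage markers, the summed level was 85.9 to 112 CPM in WT DMSO and 214 to 242 CPM in WT GSK-LSD1. In insR cells it was 110 to 115 CPM without and 123 to 131 CPM with the drug. LYZ, with a mean of 83.4 CPM in DMSO and 128 under the drug, and VCAN, with 5.26 and 88.8, made up most of this in WT cells, while S100A8 and FCN1 had 0 reads in every library and CD14 reached at most a mean of 0.998 CPM. CD68 went the other way in WT cells, with a mean of 10.4 CPM in DMSO and 8.60 under the drug, without overlap of libraries. All 6 dendritic cell markers had 0 reads in WT GSK-LSD1. Of 5 B cell markers, a lineage in which FCGR2B is the main Fc receptor, MS4A1 had 0 reads in every library, and the summed level was 14.7 to 19.3 CPM in WT DMSO and 23.9 to 24.8 in WT GSK-LSD1. In insR cells it was 10.4 to 14.0 CPM in DMSO and 15.5 to 17.0 under the drug. Markers of other lineages also stood at different levels in WT cells with the drug. The summed level of 5 erythroid markers was 1590.3 to 1867 CPM in WT DMSO against 383 to 415 with the drug, and that of 6 megakaryocyte markers 786 to 840.05 against 1139 to 1317, with PF4 and PPBP at 0 in both. Of these 6, only ITGA2B had a higher mean with the drug, at 735 against 1182 CPM. The means were lower for GP9 (9.63 against 3.08), GP6 (15.5 against 1.91) and GP1BA (58.9 against 37.4, with overlapping libraries). Summed over 8 blast markers, the level was 3244 to 3372 CPM against 4372 to 4532. Within it the means of KIT (407 against 253) and MYB (548 against 544) were lower and the rest higher. For 5 neutrophil markers the sum was 0.179 to 0.670 against 3.56 to 4.54, with ELANE, FCGR3B and CEACAM8 at 0. CSF3R made up most of that sum, with a mean of 0.400 CPM against 3.72. In insR cells, DMSO against drug, the sums were 3111 to 3495 and 2621 to 2772 CPM for erythroid, 752 to 805 and 723 to 785 for megakaryocyte, 3413 to 3754 and 3543 to 3712 for blast, and 1.48 to 4.22 and 2.07 to 2.17 for neutrophil markers. The part of all these markers in the receptor levels was not tested.

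FCGR2B and FCGR2A bind the same ligand with opposite signalling, and the reads of the pair were set against each other within each library. FCGR2B was picked as high and FCGR2A as low in drugged WT cells. The higher share there follows from that choice and is described without a test. FCGR2B made up 7.69%, 2.78% and 7.59% of the pair's reads in the WT DMSO libraries and 78.3%, 70.8% and 73.5% in WT GSK-LSD1. Pooled, this was 5.76% of 278 reads (exact 95% binomial interval 3.33% to 9.18%) against 73.9% of 483 (69.8% to 77.8%). The activating receptor had most reads of the pair in every library but those of drugged WT cells, where the inhibitory one had. In insR cells the share was 1.62% of 247 reads (0.443% to 4.09%) in DMSO and 2.86% of 140 (0.784% to 7.15%) under the drug. In insR DMSO replicate 2 it was 0 of 81 reads, which allows up to 4.45%. Reads come from transcript ends, so gene length does not scale them, but the share of an end that reads can be placed on may differ between both genes. Intervals cover counting error only and leave out the spread between libraries. The protocols mention no molecular identifiers, so copies of a molecule may be counted as separate reads, which would make the intervals too narrow.

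**Figure D2:**
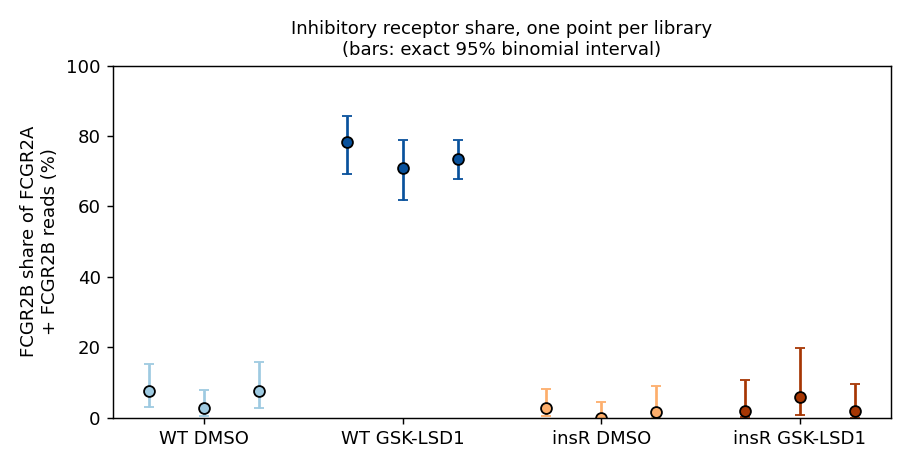
FCGR2B reads as a percentage of FCGR2A plus FCGR2B reads (vertical axis) in each of the 12 libraries, grouped by cell type and treatment (horizontal axis), with exact 95% binomial intervals. The 3 WT GSK-LSD1 libraries lie between 70.8% and 78.3%, and the other 9 at or under 7.69%. Both genes were picked with their levels in drugged WT cells in view, so this is a description.

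In insR cells, the response to GSK-LSD1 was not used to pick the genes and was tested. At an edgeR adjusted p under 0.05, 0 of the 6 genes were called, against 0.505% of all genes tested. DESeq2, limma-voom and limma-trend also called 0. FCGR2A had an unadjusted p of 0.0115, the only one of the 6 under 0.05, and an adjusted p of 0.388. Its drugged libraries all lay under the DMSO libraries, as they did for 6.44% of all genes, and 13.7% had no overlap in either direction. The log2 fold change of CLEC12A was -0.33 (SE 0.40, adjusted p = 0.949), and that of FCER1G was -0.10 (SE 0.18, adjusted p = 0.967). CLEC4A, JAML and FCGR2B passed the count filter through the drugged WT libraries, and their reads in insR cells were too few to show a moderate change. That these genes were not called does not show that their levels were steady. The pooled ratio of drug to DMSO was 1.03 (0.248 to 4.05) for JAML and 1.23 (0.230 to 6.63) for FCGR2B, with adjusted p-values of 1.0 and 0.990. CLEC4A had 3 reads against 2, for which no ratio is given, and an adjusted p of 0.967.

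The difference between the drug responses, insR minus WT, rests on the WT contrast that picked the genes and is given as a description. In log2 units it was -7.63 (SE 2.21) for CLEC4A, -6.64 (SE 1.12) for JAML, -4.0 (SE 1.20) for FCGR2B and -2.64 (SE 0.61) for CLEC12A. For FCGR2A it was 0.64 (SE 0.29) and for FCER1G -0.02 (SE 0.25). With 1 library left out these moved most for FCGR2B, to -3.04 without insR DMSO replicate 1, and for CLEC4A, to -8.59 without insR GSK-LSD1 replicate 2. Over all genes, 25.1% were called for this difference. Under the drug, the insR libraries lay under all WT libraries for CLEC4A, CLEC12A, JAML and FCGR2B and overlapped them for FCGR2A and FCER1G. Over all genes 60.1% had no overlap there. The level of CLEC12A in drugged WT cells was 1.92 times that in drugged insR cells (1.30 to 2.88), a far smaller gap than for the other 3 genes.

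Comparing both cell types without the drug, CLEC12A was higher in insR cells, at 2.93 ± 1.38 CPM against 0.901 ± 0.439 (SD, n = 3). The log2 fold change was 1.68 (SE 0.47, edgeR adjusted p = 0.00832), higher in 3 of 3 libraries, and 30.1% of all genes were called in this comparison. This call was lost without WT DMSO replicate 2 (adjusted p = 0.0714) or without insR DMSO replicate 2 (adjusted p = 0.0709), and the adjusted p ranged from 0.00142 to 0.0714 over all alternatives. FCER1G did not pass the test, with a log2 fold change of -0.10 (SE 0.18, adjusted p = 0.727). The remaining 4 genes were picked partly on the WT DMSO level and are described only. Their log2 fold changes were -2.11 (SE 0.70) for FCGR2B, -1.06 (SE 1.21) for CLEC4A, -0.59 (SE 0.74) for JAML and -0.30 (SE 0.19) for FCGR2A. Without insR DMSO replicate 1 the value of FCGR2B was -3.06, and that of CLEC4A was -1.55 without WT DMSO replicate 1 and -0.46 with limma-trend. Libraries did not overlap for CLEC12A and FCGR2B, 2 of the 6 genes, against 42.4% of all genes. The libraries of WT DMSO enter this comparison as well as the WT drug response, so their values are not independent.

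Beyond the 6 genes, 223 genes of 5 lists were followed: C-type lectin receptors, Fc receptors, paired and immunoglobulin-like receptors, ITAM and ITIM signalling genes, and leukocyte adhesion genes. Of these, 124 passed the count filter. In WT cells under the drug 54 were called higher and 18 lower by edgeR, 58.1% of those tested. Over all genes 45.2% were called, 22.7% higher and 22.5% lower. The median log2 fold change of the list genes was 0.24, against 0.01 over all genes. A filter that keeps genes high in only 1 group favours such calls, so this is a description.

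Among lectin receptors, 6 of 12 tested rose and 2 fell in WT cells. MRC2, a collagen-binding endocytic receptor, rose from 48.1 ± 2.69 to 162 ± 13.9 CPM (SD, n = 3; log2 fold change 1.75, edgeR adjusted p = 2.54e-13). CLEC2B, a lectin encoded near CLEC12A, rose from 32.4 to 73.7 CPM (1.19, adjusted p = 2.22e-08). COLEC12, a scavenger receptor with a lectin domain, went from 5 reads to 111 (4.24, adjusted p = 6.86e-07). CD93 rose from 66.8 to 92.0 CPM (0.46, adjusted p = 0.00148) and differed most between cell types, at 8.75 CPM in insR DMSO (-2.94, adjusted p = 2.62e-14). KLRG1, an inhibitory lectin receptor with an ITIM, fell from 54.6 to 42.1 CPM in WT cells (-0.37, adjusted p = 0.0354). That call was lost in 5 alternatives, among them 4 that each left out 1 library (WT GSK-LSD1 replicate 1 or 2, 0.111 and 0.0652, and WT DMSO replicate 2 or 3, 0.101 and 0.0820). The liver lectin ASGR1 was lower in insR than in WT cells in DMSO, at 2.86 against 7.80 CPM (-1.42, adjusted p = 6.2e-05).

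Only 3 other Fc receptor genes passed the filter, and 2 of them rose in WT cells. FCER1A, the IgE-binding chain that pairs with FCER1G, was at 85.5, 103 and 55.2 CPM in WT DMSO and 200.4, 353 and 339.8 CPM in WT GSK-LSD1. Its log2 fold change was 1.87 (SE 0.26, edgeR adjusted p = 0.000325), while its partner FCER1G overlapped between these groups. FCGRT, the neonatal Fc receptor that protects IgG from breakdown, rose from 54.1 ± 1.76 to 146 ± 9.78 CPM (1.43, adjusted p = 7.42e-11). TRIM21, a cytosolic Fc receptor, was higher in insR DMSO than in WT DMSO, at 18.3 against 12.9 CPM (0.48, adjusted p = 0.0268). Leaving out WT DMSO replicate 1 (0.0641) or 3 (0.106), or insR DMSO replicate 2 (0.160) or 3 (0.0505), removed that call. FCGR3A did not pass the filter, with 1 read over WT DMSO and 0 over WT GSK-LSD1.

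Of paired and immunoglobulin-like receptors, 10 of 25 tested rose and 2 fell in WT cells. LAIR1, an inhibitory collagen receptor, rose from 7.55 ± 1.38 to 27.4 ± 3.24 CPM (SD, n = 3; log2 fold change 1.86, edgeR adjusted p = 5.28e-08). CD33, an inhibitory sialic acid receptor of myeloid cells, rose from 55.6 to 119 CPM (1.10, adjusted p = 1.59e-09). CD48, a ligand of CD244, went from 4 reads to 162 (5.09, adjusted p = 2.48e-08), and SIGLEC15 from 0.921 to 11.9 CPM (3.66, adjusted p = 6.14e-08). GP6, the platelet collagen receptor that signals through FCER1G, fell from 15.5 ± 0.422 to 1.91 ± 0.856 CPM (-3.03, adjusted p = 3.85e-10). In DMSO, insR cells were higher than WT cells for SLAMF7 (9.14 against 0.475 CPM, 4.17, adjusted p = 1.1e-08), CD244 (9.98 against 2.38 CPM, 2.09, adjusted p = 4.56e-06) and NCR3 (7.83 against 1.89 CPM, 2.06, adjusted p = 4.4e-05).

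Signalling genes downstream of the receptors moved in both directions, with 19 of 45 higher and 8 lower in WT cells. TYROBP, an ITAM adaptor of the same kind as FCER1G, was at 15.6, 18.9 and 14.8 CPM in WT DMSO and 56.0, 35.7 and 42.9 CPM in WT GSK-LSD1. It rose with a log2 fold change of 1.43 (SE 0.16, edgeR adjusted p = 2e-07), while FCER1G overlapped between these groups. In DMSO it was also higher in insR than in WT cells (0.50, adjusted p = 0.0279), a call that leaving out WT DMSO replicate 1 (0.0848) or 3 (0.0909), or insR DMSO replicate 1 (0.132) or 2 (0.0872), removed. INPP5D, the phosphatase that FCGR2B recruits, rose from 196 ± 21.7 to 318 ± 20.4 CPM (0.70, adjusted p = 9.76e-07). The other ITIM phosphatase, PTPN6, was at 40.3 and 47.6 CPM (0.23, adjusted p = 0.0738), and LYN at 247 and 279 CPM (0.17, adjusted p = 0.0824). SYK was at 31.9 CPM in WT DMSO against 28.4 with the drug (-0.17, adjusted p = 0.339), but was lower in insR DMSO, at 11.5 CPM (-1.48, adjusted p = 3.64e-08).

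Other signalling genes were also called in WT cells. CBLB, a ubiquitin ligase that limits receptor signalling, rose from 11.4 ± 2.25 to 99.4 ± 9.98 CPM in WT cells (SD, n = 3; log2 fold change 3.13, edgeR adjusted p = 1.26e-14). Its relative CBL rose from 109.7 to 224 CPM (1.03, adjusted p = 1.95e-09), the scaffold GAB2 from 55.3 to 156 (1.5, adjusted p = 3.55e-11) and the phosphatase PTPRC, or CD45, from 431 to 945 (1.13, adjusted p = 1.07e-11). UBASH3B, a phosphatase that acts on SYK, fell from 466 to 91.0 CPM (-2.36, adjusted p = 7.1e-16).

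Adhesion genes included 18 of 41 that rose and 6 that fell in WT cells. MPZL3, an adhesion protein of the immunoglobulin family encoded beside JAML, was at 6.85, 7.64 and 12.7 CPM in WT DMSO and 145, 143 and 144 CPM in WT GSK-LSD1 (log2 fold change 4.0, SE 0.15, edgeR adjusted p = 3.34e-16). CD44, the hyaluronan receptor, rose from 95.8 to 382 CPM (1.99, adjusted p = 7.57e-15), ALCAM from 21.3 to 101 (2.24, adjusted p = 2.07e-14) and CD34 from 295 to 696 (1.24, adjusted p = 9.14e-13). ITGAM, the CD11b integrin chain of mature myeloid cells, rose from 19.3 to 66.9 CPM (1.80, adjusted p = 9.12e-11). ITGA4, an integrin chain of progenitors, fell from 509.7 to 222 CPM (-1.20, adjusted p = 1.01e-11).

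The known ligand of JAML, CXADR, was itself measured in these cells. It was at 3.51, 6.03 and 4.11 CPM in WT DMSO and 8.89, 12.9 and 7.64 CPM in WT GSK-LSD1, a rise with a log2 fold change of 1.06 (SE 0.28, edgeR adjusted p = 0.00329). In insR cells it had 2 reads in DMSO and 6 under the drug. Against the 88 reads of WT DMSO, its level in insR DMSO was 0.0197 times as high, with a counting interval of 0.00235 to 0.0735 (edgeR adjusted p = 8.23e-08). The transcripts of receptor and ligand were thus both highest in drugged WT cells and both scarce in insR cells, and CXADR, unlike JAML, was already measurable in WT DMSO. JAM3, another junctional adhesion molecule, was also lower in insR than in WT cells in DMSO, at 1.78 against 31.8 CPM (-4.19, adjusted p = 4.28e-13), whereas PVR was higher, at 63.9 against 24.6 CPM (1.37, adjusted p = 1.03e-08).

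In insR cells under the drug, 2 of the 124 list genes tested were called, both higher, or 1.61%, against 0.505% of all genes. By unadjusted p, 22 of them were under 0.05, or 17.7%, against 7.74% of all genes. VSTM1, an inhibitory receptor of myeloid cells with an ITIM, was at 40.8, 42.2 and 33.7 CPM in insR DMSO and 70.4, 63.5 and 66.0 CPM under the drug (log2 fold change 0.77, SE 0.11, edgeR adjusted p = 0.000783). ITGAM went from 17.2 to 29.7 CPM (0.82, SE 0.14, adjusted p = 0.00425), a call that was lost without insR DMSO replicate 1 (0.0658). In WT cells VSTM1 did not pass the test (0.13, adjusted p = 0.385), and its response was larger in insR cells by 0.65 (adjusted p = 0.00393 for the difference). As VSTM1 was named for its call in insR cells, that difference is a description. No list gene was called lower in insR cells with edgeR or any alternative.

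Between the cell types in DMSO, 29 of the list genes were called higher and 30 lower in insR cells, 47.6% of those tested. Over all genes 14.5% were called higher and 15.6% lower. Lectin receptors had 3 higher and 4 lower, Fc receptors 1 and 0, paired and immunoglobulin-like receptors 9 and 3, signalling genes 6 and 14, and adhesion genes 11 and 9. For the difference between drug responses, 12 were called higher and 32 lower in insR cells than in WT cells, 35.5% of those tested. Over all genes 25.1% were called, 13.3% higher and 11.8% lower. This term holds the WT response, so the limit of the filter given above applies and this is a description.

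**Figure D3:**
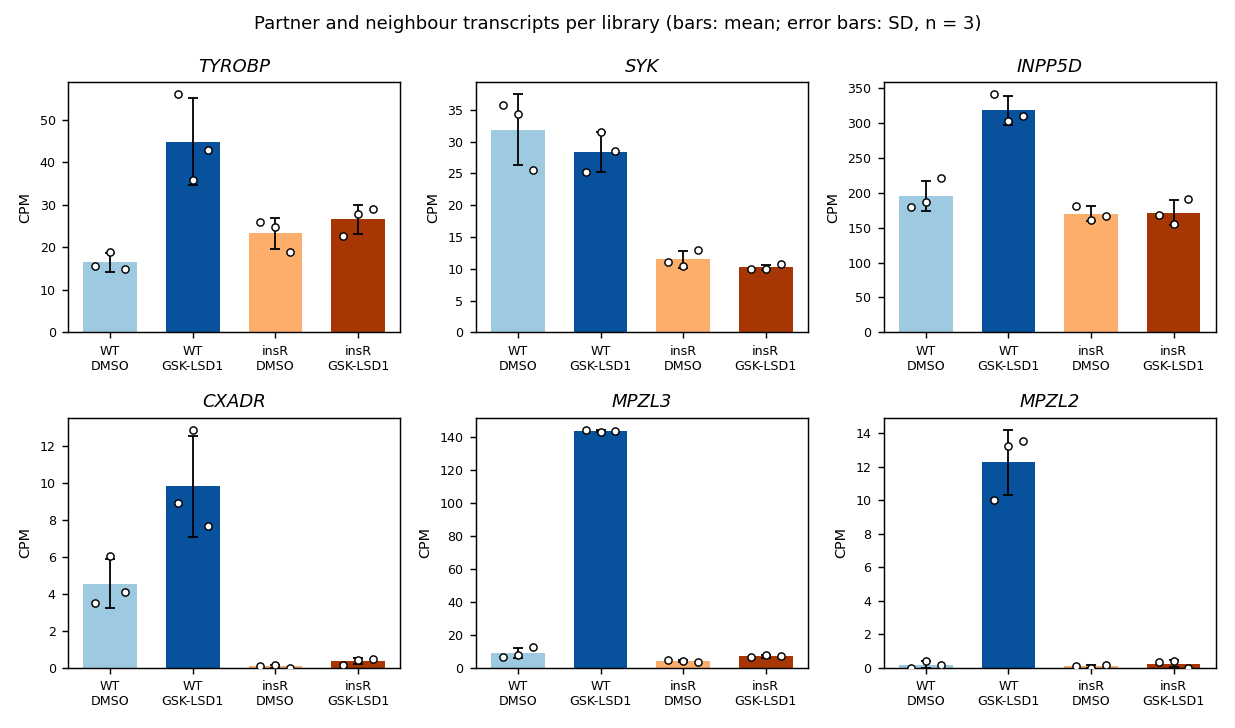
CPM (vertical axes, linear and of different heights) of adaptor, kinase, phosphatase, ligand and neighbour transcripts in the 4 groups (horizontal axis), with bars for means, error bars for SD (n = 3) and circles for libraries. TYROBP and INPP5D are highest in WT GSK-LSD1, SYK and CXADR are low in both insR groups, and MPZL3 and MPZL2 are highest in WT GSK-LSD1.

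The genes beside the receptors were read in gene order, from a later annotation than the one behind the counts, as the 8 tested genes on each side. The 6 receptors had 60 such neighbours, of which 29 were called in WT cells under the drug by edgeR, or 48.3%, near the 45.2% of all genes. By at least 2-fold, 13 of the 60 were called, against 12.1% of all genes. JAML had 5 of these among its 16 neighbours, all higher. They were MPZL3, MPZL2, BACE1, SIDT2 and TAGLN.

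MPZL3 and MPZL2 come directly after JAML in gene order and lie on the same strand. MPZL2, another adhesion protein of this family, was at 0, 0.402 and 0.179 CPM in WT DMSO and 10.02, 13.2 and 13.5 CPM in WT GSK-LSD1 (log2 fold change 5.74, SE 0.48, edgeR adjusted p = 7.64e-10). Like JAML, it had few reads in insR cells, 2 in DMSO and 4 under the drug. MPZL3 was at 4.05 ± 0.671 CPM in insR DMSO against 7.04 ± 0.802 with the drug (SD, n = 3), and this change did not pass the test (0.75, adjusted p = 0.177). On the other side of JAML, BACE1, a membrane protease, rose from 6.84 to 22.2 CPM in WT cells (1.69, adjusted p = 4.77e-06) and SIDT2, a lysosomal membrane protein, from 23.9 to 86.6 (1.85, adjusted p = 6.39e-12). CEP164, which lies between BACE1 and JAML among the tested genes, did not pass the test (-0.21, adjusted p = 0.254). The rise of TAGLN from 1.33 to 2.66 CPM (1.10, adjusted p = 0.0306) was lost in 7 alternatives, among them without WT DMSO replicate 2 (0.180) or 3 (0.0702) and without WT GSK-LSD1 replicate 3 (0.277).

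Near CLEC4A, GDF3, a secreted factor related to TGF-beta, rose in both cell types, from 11.2 ± 0.699 to 97.8 ± 8.78 CPM in WT cells (log2 fold change 3.12, edgeR adjusted p = 3.21e-16) and from 26.9 ± 1.21 to 60.4 ± 2.51 CPM in insR cells (1.17, adjusted p = 2.82e-07; SD, n = 3). It was the only one of the 60 neighbours called in insR cells, where 0.505% of all genes were called and 0.0855% by at least 2-fold. SLC2A14, a glucose transporter whose near copy SLC2A3 makes its counts uncertain, fell in WT cells (-1.99, adjusted p = 2.39e-05). The insR cells had more CD163L1, a scavenger receptor, in DMSO, at 13.8 against 1.60 CPM (3.05, adjusted p = 1.99e-07). A gene listed only as ENSG00000257027 rose from 0.504 to 2.49 CPM in WT cells (2.30, adjusted p = 0.00071). PEX5 fell in WT cells (-1.22, adjusted p = 0.0216), a call lost when WT GSK-LSD1 replicate 1 (0.0739) or 3 (0.135), or WT DMSO replicate 1 (0.104) or 2 (0.0669), was left out.

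CLEC12A lies among other lectin genes, and these went both ways. CLEC2B rose in WT cells, as given above, while CLEC1B, a platelet lectin receptor, and KLRC2, a receptor of natural killer cells with near copies, fell (log2 fold changes -1.63 and -3.51, edgeR adjusted p = 0.0404 and 1.52e-05). KLRC2 went from 4.10 to 0.325 CPM. The call of CLEC1B, with 23 reads against 8, was lost when WT GSK-LSD1 replicate 1 (0.128) or 2 (0.102), or WT DMSO replicate 2 (0.0796) or 3 (0.114), was left out. In DMSO, insR cells differed from WT cells in CLEC1B (1.40, adjusted p = 0.016, lost in 3 alternatives), KLRC2 (-1.15, 0.0338, lost in 7), the activation marker CD69 (1.32, 0.0279, lost in 5) and STYK1 (1.0, 0.00599, lost without WT DMSO replicate 2, 0.0554). Around FCGR2A and FCGR2B, SH2D1B, an adaptor of SLAM family receptors, fell from 3.62 to 0.844 CPM in WT cells (-2.09, adjusted p = 9.42e-06). In DMSO it was at 35.8 CPM in insR cells (3.30, adjusted p = 2.93e-13), beside C1orf226 at 22.3 against 9.95 CPM (1.13, adjusted p = 0.000368). In that comparison 10 of the 60 neighbours were called by at least 2-fold, against 10.7% of all genes. At any size of change, 29 of the 60 were called, 18 higher and 11 lower, or 48.3% against 30.1% of all genes. Around JAML 1 was higher and 7 were lower in insR cells. Around FCGR2A and FCGR2B, which share most neighbours, all those called were higher, 7 and 8 of 14. The part of such regional differences in the receptor levels was not tested.

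**Figure D4:**
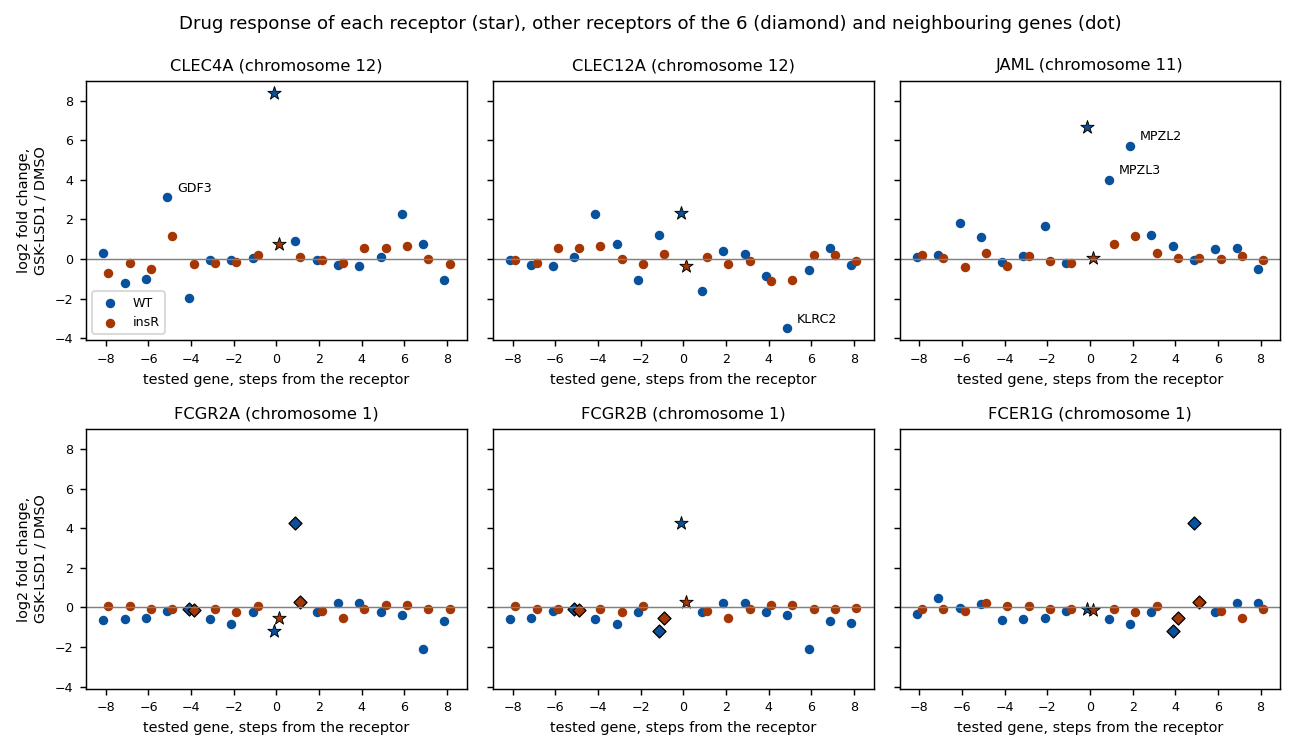
Log2 fold change of GSK-LSD1 over DMSO (vertical axis) in WT and insR cells for each receptor gene (star), for others of the 6 genes (diamond) and for the 8 tested neighbours per side (dot), by steps in gene order (horizontal axis). Beside JAML, at 6.67 in WT cells, stand MPZL3 at 4.0 and MPZL2 at 5.74, whereas the genes next to FCGR2A and FCER1G lie near 0 apart from FCGR2B.

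Among 8956 protein-coding genes whose highest group mean reached 10 CPM, those with patterns most like each receptor over the 12 libraries were found by Pearson's r of log2(CPM + 1). For CLEC4A they were MPZL2 (r = 0.997), RFLNB (0.995) and ZNF521 (0.993), and for JAML they were CRYBG1 (0.996), PTPRC (0.994) and ITGA9 (0.993). FCGR2B was most like GLIPR1 (0.993), TRIM8 (0.992) and EPAS1 (0.990). The 12 libraries fall into 4 groups and the patterns of these receptors rest on 1 of them, so high values are common, with 495, 545 and 615 genes at r of 0.9 or more. CLEC12A was most like MMUT (0.956), SNX27 (0.914) and TBC1D12 (0.899), and FCGR2A most like MRPS30 (0.949), SIAH2 (0.929) and GTF3C4 (0.928). FCER1G, whose groups all overlapped, had no gene above 0.786, the value for NAA35.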

How the data were processed

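Per the labels' protocols, polyadenylated RNA went into a QuantSeq kit that reads transcript 3′ ends. The submitters' processing notes name bcl2fastq 2.2, STAR 2.6.0c, HTSeq 0.9.1, DESeq2 and hg19. The annotation release is not given in the sources used here, nor the strand setting; values of overlapping or antisense genes are therefore uncertain. The authors' deposited counts hold whole reads for each gene. The deposited normalized signal holds them divided by 1 size factor per library, and gave back whole reads for 100% of values (tolerance 0.01) with 0 genes differing. Symbols were matched for 52181 of 63677 genes, and entries naming no gene were left out.

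Groups and replicate numbers came from sample titles. Whether replicates were separate cultures is not stated, and p-values then cover only the spread between these samples, possibly technical. Genes were tested with edgeR 4.0.16 (R 4.3.3; quasi-likelihood, robust), with TMM scaling and filterByExpr on all 12 libraries, with Benjamini-Hochberg adjustment over 12864 genes and calls below 0.05. CPM are TMM-scaled. Ratios divide pooled counts by pooled scaled library totals, with exact 95% counting intervals. The 6 genes and all lists were chosen with earlier results of these data known. Other genes named were called list genes of lowest p at 5 CPM or more (up to 5 per list and comparison), fixed partners and neighbours called at least 2-fold. A single further gene chosen in this way is not reported here. Alternatives were other scalings, no filter, DESeq2 1.42.0, limma 3.58.1 (voom; trend on log2 of deposited signal plus 1), a replicate block, each library left out in turn and fits without the groups not compared. A fit on the recovered reads was added after seeing the data. The fit was tested on simulated counts.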

Additional observations from a re-analysis of the deposited data

Results flagged for a closer look

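For 31 of the named genes outside the 6 receptors, the response to GSK-LSD1 differed between insR and WT cells by the interaction term of the edgeR fit. Over all genes tested, 25.1% were called for this difference. Many of the named genes were chosen for calls in comparisons that share libraries with this term. The directions were thus largely set by that choice, and the values are a description. Each value is the log2 difference, insR minus WT, followed by the adjusted p. Genes that rose in WT cells had negative differences. Among lectin and Fc receptors these were MRC2 (-1.72, 3.92e-09), CLEC2B (-0.91, 0.000385), COLEC12 (-4.86, 0.0052), FCGRT (-1.23, 1.37e-06) and FCER1A (-1.68, 0.00903). Among immunoglobulin-like receptors they were CD33 (-0.88, 2.83e-05), LAIR1 (-1.44, 0.00219), CD48 (-3.48, 0.016) and SIGLEC15 (-2.34, 0.00252). Signalling genes comprised CBLB (-3.15, 5.85e-10), CBL (-1.15, 7.72e-07), GAB2 (-1.57, 2.58e-08), PTPRC (-1.02, 1.14e-07), TYROBP (-1.26, 0.000316) and INPP5D (-0.69, 0.00034), and adhesion genes CD44 (-2.07, 1.36e-11), ALCAM (-1.97, 3.9e-10), CD34 (-0.97, 1.4e-07), ITGAM (-0.98, 0.000605) and MPZL3 (-3.25, 6.73e-09). Those of COLEC12 and CD48 were lost without insR DMSO replicate 1 (adjusted p = 0.0946 and 0.109).

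Genes that fell in WT cells had positive differences, as seen for UBASH3B (2.09, 1.36e-11), ITGA4 (1.25, 9.86e-09), GP6 (2.82, 5.63e-07) and KLRG1 (0.94, 0.0014). VSTM1 differed by 0.65 (adjusted p = 0.00393) and was the one list gene here whose call was in insR cells alone.

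Of neighbours of the receptors, SIDT2 (-2.25, 3.9e-10), GDF3 (-1.95, 2.15e-09) and BACE1 (-1.81, 0.00159) had a smaller rise or none in insR cells, and SH2D1B (1.98, 0.000172), SLC2A14 (1.75, 0.00229) and KLRC2 (2.45, 0.0354) had a smaller fall or none. GDF3 rose in both cell types. The call of KLRC2 was lost in 6 alternatives that each left out 1 library, with an adjusted p of up to 0.192. These were WT DMSO replicate 2, WT GSK-LSD1 replicates 2 and 3, insR DMSO replicates 1 and 2, and insR GSK-LSD1 replicate 2.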

How the results depend on the processing

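Over the alternatives, the log2 fold changes of CLEC4A (7.86 to 8.85), JAML (6.30 to 7.14), FCGR2B (3.87 to 4.58), CLEC12A (1.89 to 2.6) and FCGR2A (-1.33 to -1.03) in WT cells kept their direction. In insR cells 0 of the 6 genes were called under any alternative, though CLEC4A, JAML and FCGR2B had too few reads there to show a moderate change. Values near 0 changed sign there when 1 library was left out, within ranges of -0.19 to 1.39 for CLEC4A, -0.71 to 0.0596 for CLEC12A, -0.61 to 0.53 for JAML and -0.20 to 1.24 for FCGR2B. With limma-trend JAML was at -0.0048. These fitted values rest on a few reads, and fits on only the groups compared could not be made for the scarce genes. In DMSO, the insR excess of CLEC12A ranged from 1.26 to 2.06 with 1 library left out, and FCER1G from -0.20 to 0.0793. For the difference in response, ranges were -8.59 to -7.01 for CLEC4A, -7.27 to -6.14 for JAML, -4.49 to -3.04 for FCGR2B and -3.01 to -2.22 for CLEC12A. List genes called higher in insR cells numbered 2 in the main analysis, 5 with no filter, 3 with upper-quartile scaling, 4 on only the groups compared, 6 with DESeq2 and 2 to 4 with 1 library left out; the cause was not tested. Of 108 calls of other named genes, 15 were lost under at least 1 alternative and 0 reversed. With a replicate block, none of 132 values of single genes changed its direction or call. List genes called higher numbered 53 instead of 54 in WT cells and 3 instead of 2 in insR cells, and those called lower for the difference 31 instead of 32. Deviations of libraries with the same number correlated at -0.169 to 0.198, -0.135 to 0.0792 and 0.0575 to 0.178. Such weak values show no strong pairing by number, but cannot tell whether same-numbered samples were made together. Depth limits the scarce receptors, at 3 counts or 0.296 to 0.62 CPM.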
